A study of Homo sapiens with 8 samples.

Results

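The H3K27ac regions of chromosome 12 are the merged intervals of the peak lists of MP2_HDAC1_OE and MP2_NTC that lie on this chromosome, where peaks that shared at least 1 bp were joined into a single region. They number 891 of the 18678 regions of the genome. Chromosome 12 was chosen by the share of its regions that came from MP2_HDAC1_OE alone, which was high among the chromosomes, so that share is given as a description and supports nothing. Both lines are MIA PaCa-2 cells, a line from a human pancreatic carcinoma, that carry lentiMPHv2, the helper plasmid of CRISPR activation (CRISPRa). MP2_HDAC1_OE also received lentiSAMv2 with an sgRNA for *HDAC1*, and MP2_NTC received lentiSAMv2 with a non-targeting sgRNA (NTC), so the activation machinery was common to both. MP2_HDAC1_OE is a single stable line, and the activation of *HDAC1* and any other difference between both lines cannot be told apart. H3K27ac was measured by ChIP-sequencing in 2 samples of each line beside 2 samples without antibody of each line, and the peaks of a line were deposited as 1 list over both samples. No list holds replicates or read counts, so no test between the lines was possible, the sequencing depth is unknown, and the 95% exact binomial intervals below cover counting error alone.

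Acetylation of lysine 27 of histone H3 is placed by the acetyltransferases p300 and CBP and marks active promoters and enhancers. HDAC1 removes acetyl groups from histone tails and works within the NuRD, SIN3 and CoREST complexes, which are known both to silence genes and to sit at active ones. Chromosome 12 carries the cell cycle inhibitor gene *CDKN1B* on its short arm, the *HOXC* and type II keratin clusters and *CDK4* and *MDM2* on its long arm, and several genes of chromatin complexes.

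At *HDAC1* itself, on chromosome 1, the promoter window held 1 shared region and 1 region unique to MP2_NTC. Its strongest MP2_HDAC1_OE peak stood at percentile 93.9 of that line's peaks, and its strongest MP2_NTC peak at percentile 45.2. Of 6 epithelial marker genes, 3 had a region in MP2_HDAC1_OE and 2 in MP2_NTC, and 2 of 4 mesenchymal markers, *VIM* and *ZEB1*, had a region in each line. *EPCAM*, *CDH1* and *KRT7* had none in either line. None of 3 fibroblast and stellate markers and none of 5 acinar and islet markers had a region. The leukocyte marker *CD14* had a region unique to MP2_NTC, and the endothelial marker *CDH5* had a shared region.

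The promoters that the results turn on are printed first, as 300 bases each from 250 before to 50 after the annotated start (RefSeq, GRCh38.p14), 5′ to 3′ along the gene's own strand. Capitals mark each GC box, GGGCGG on either strand, a motif bound by factors of the SP family. *UQCC6* (chr12:103957166-103957465, minus strand), an assembly factor of mitochondrial complex III, lies under the strongest region unique to MP2_HDAC1_OE. *EIF4B* (chr12:53006206-53006505, plus strand), a translation initiation factor, has the strongest region unique to MP2_NTC that overlaps such a promoter. *YARS2* (chr12:32755848-32756147, minus strand), the mitochondrial tyrosyl-tRNA synthetase, has the highest ranked shared region between 20 and 40 Mb. *MPHOSPH9* (chr12:123233092-123233391, minus strand) and *M6PR* (chr12:8949596-8949895, minus strand), which encodes a mannose 6-phosphate receptor, have the largest differences in rank toward MP2_HDAC1_OE and toward MP2_NTC among regions that overlap such a promoter. The region at *MPHOSPH9* reaches only the last part of its printed bases and also overlaps an end of *MTRFR*. That at *M6PR* also overlaps the promoter window of *KLRG1*. *PHLDA1* (chr12:76031727-76032026, minus strand) borders a long run of closely spaced regions. *RAN* (chr12:130871816-130872115, plus strand), the GTPase of nuclear transport, has an uncovered start between a region unique to MP2_HDAC1_OE and a shared region.
UQCC6: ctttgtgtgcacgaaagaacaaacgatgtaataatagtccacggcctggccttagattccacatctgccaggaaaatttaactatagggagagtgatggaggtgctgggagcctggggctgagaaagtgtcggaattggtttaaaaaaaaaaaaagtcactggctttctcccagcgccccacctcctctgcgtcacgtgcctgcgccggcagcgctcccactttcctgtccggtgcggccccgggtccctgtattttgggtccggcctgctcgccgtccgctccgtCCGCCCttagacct
EIF4B: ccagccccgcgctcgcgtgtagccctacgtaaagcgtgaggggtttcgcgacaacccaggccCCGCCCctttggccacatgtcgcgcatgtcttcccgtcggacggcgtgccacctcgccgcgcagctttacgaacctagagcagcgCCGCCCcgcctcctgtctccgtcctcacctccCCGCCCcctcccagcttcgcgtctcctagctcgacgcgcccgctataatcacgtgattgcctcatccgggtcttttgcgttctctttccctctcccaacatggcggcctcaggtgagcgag
YARS2: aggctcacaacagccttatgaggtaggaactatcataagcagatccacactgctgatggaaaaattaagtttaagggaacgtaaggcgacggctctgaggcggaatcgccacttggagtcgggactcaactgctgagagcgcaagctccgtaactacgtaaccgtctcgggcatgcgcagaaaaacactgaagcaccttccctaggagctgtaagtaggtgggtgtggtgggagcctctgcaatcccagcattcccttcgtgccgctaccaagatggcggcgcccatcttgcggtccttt
MPHOSPH9: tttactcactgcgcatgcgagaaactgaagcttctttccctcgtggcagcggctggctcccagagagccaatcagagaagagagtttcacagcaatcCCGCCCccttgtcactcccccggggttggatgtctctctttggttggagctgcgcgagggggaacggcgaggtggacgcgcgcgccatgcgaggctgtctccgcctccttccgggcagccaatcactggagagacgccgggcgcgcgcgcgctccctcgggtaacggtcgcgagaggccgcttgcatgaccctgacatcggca
M6PR: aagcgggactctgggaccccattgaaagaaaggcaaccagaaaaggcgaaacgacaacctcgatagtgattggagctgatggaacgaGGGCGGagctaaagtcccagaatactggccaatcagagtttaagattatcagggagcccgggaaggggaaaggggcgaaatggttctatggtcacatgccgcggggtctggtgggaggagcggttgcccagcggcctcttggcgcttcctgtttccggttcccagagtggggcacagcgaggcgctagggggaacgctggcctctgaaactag
PHLDA1: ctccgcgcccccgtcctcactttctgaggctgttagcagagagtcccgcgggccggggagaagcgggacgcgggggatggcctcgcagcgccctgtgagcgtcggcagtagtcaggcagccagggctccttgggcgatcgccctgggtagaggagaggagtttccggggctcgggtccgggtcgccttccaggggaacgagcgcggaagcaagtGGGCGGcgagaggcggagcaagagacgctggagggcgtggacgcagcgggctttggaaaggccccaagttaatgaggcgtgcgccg
RAN: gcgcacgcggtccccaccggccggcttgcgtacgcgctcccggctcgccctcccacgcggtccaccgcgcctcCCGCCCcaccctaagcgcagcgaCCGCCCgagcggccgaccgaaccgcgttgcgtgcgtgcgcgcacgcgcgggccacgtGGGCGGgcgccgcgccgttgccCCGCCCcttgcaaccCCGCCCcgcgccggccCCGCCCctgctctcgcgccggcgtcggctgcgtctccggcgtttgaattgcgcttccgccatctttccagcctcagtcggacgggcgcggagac
The *RAN* promoter had 6 GC boxes and 57 CG pairs, the *EIF4B* promoter 3 and 35, and the *YARS2* promoter 0 and 17, so the highest ranked of these promoters had no GC box in this window.

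MP2_HDAC1_OE had 1232 peaks on chromosome 12, 4.92% of its 25045 peaks, and MP2_NTC had 981, 4.35% of its 22569 peaks. The deposited signal, a value per peak whose definition is not stated in the sources used here, had a median of 44.6 in MP2_HDAC1_OE (lowest 11.04, highest 162). In MP2_NTC the median was 47.1 (lowest 11.9, highest 192). Over the whole lists, the medians were higher, at 46.5 and 49.3. The scaling of the signal between the lists is not known, so peaks were compared by their percentile within a list.

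A region was called unique to a line when all of its peaks came from that line. On chromosome 12, 300 regions (33.7%, 30.6 to 36.9) were unique to MP2_HDAC1_OE, against 28.6% of all regions of the genome. The regions unique to MP2_NTC numbered 157 (17.6%, 15.2 to 20.3), against 20.7% of all regions. The remaining 434 regions (48.7%) were shared, against 50.7%. Regions unique to MP2_HDAC1_OE were therefore 1.91 times as many as those unique to MP2_NTC, where the ratio over the genome was 1.38. Of 23 chromosomes, chromosome 12 came second in the share unique to MP2_HDAC1_OE after chromosome 11, with 281 of 795 regions (35.3%, 32.0 to 38.8). The ratio of both unique classes on chromosome 11 was 1.94, close to that of chromosome 12. Chromosome 4 followed with 32.8%, and there the regions unique to MP2_NTC were also frequent, at 27.2%.

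**Figure D1:**
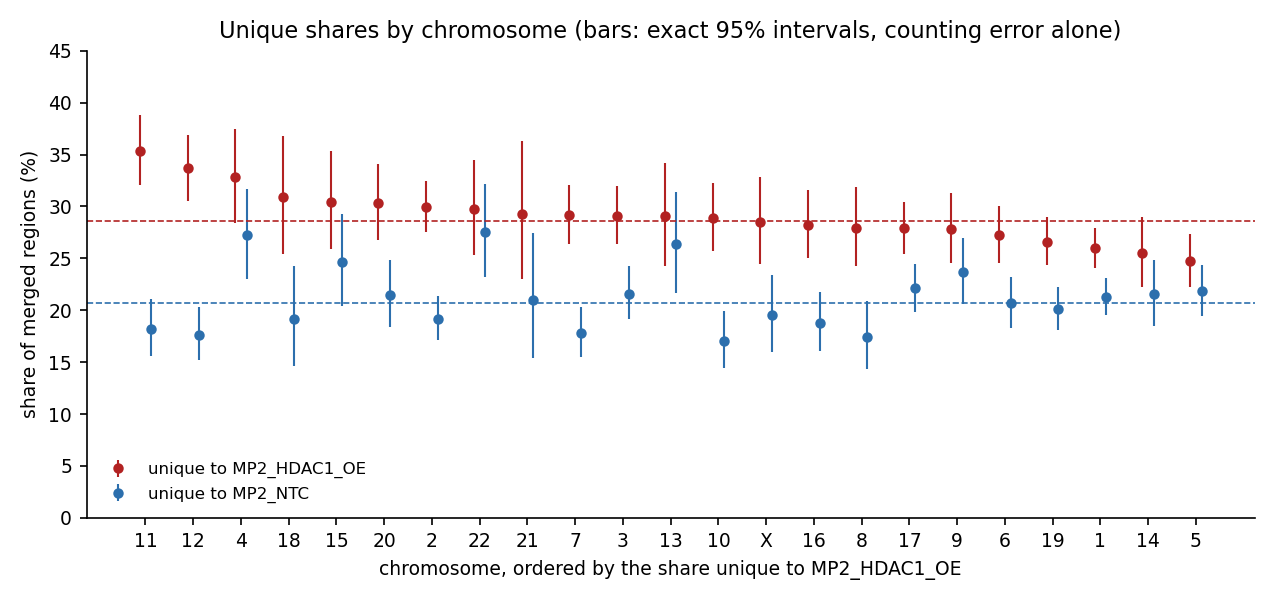
Share of merged regions (%, y axis) unique to MP2_HDAC1_OE (red) and unique to MP2_NTC (blue) on each chromosome (x axis, ordered by the red share), with exact 95% binomial intervals of counting error as bars and the shares over all regions as dashed lines. Chromosome 12 is second from the left at 33.7% and 17.6%, beside chromosome 11 at 35.3% and 18.2%.

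Both arms carried more regions unique to MP2_HDAC1_OE than unique to MP2_NTC. The arms were divided at 36 Mb, inside the gap at the centromere, with no region within 1 Mb. The short arm had 268 regions, of which 85 (31.7%, 26.2 to 37.7) were unique to MP2_HDAC1_OE and 38 (14.2%) unique to MP2_NTC. The long arm had 623 regions, of which 215 (34.5%, 30.8 to 38.4) were unique to MP2_HDAC1_OE and 119 (19.1%) unique to MP2_NTC. The intervals of the arms overlapped. Chromosome 12 had 45.4 more regions unique to MP2_HDAC1_OE than the 255 that the share over the genome would give for its number of regions, of which 37.0 were on the long arm and 8.42 on the short arm.

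In steps of 5 Mb, the higher share was spread along the chromosome. Of 19 bins with at least 10 regions, 15 (78.9%) had a share unique to MP2_HDAC1_OE above 28.6%, and 18 (94.7%) had more regions unique to MP2_HDAC1_OE than to MP2_NTC. On the other chromosomes, the same held for 42.1% and 60.2% of 420 such bins. No bin of chromosome 12 with at least 10 regions had over 50% of its regions unique to MP2_HDAC1_OE, while 19 bins elsewhere did. The median of the 19 bins was 33.3%, against 25.9% elsewhere. Leaving out any single bin kept the share of the chromosome between 32.8% and 34.2%.

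The highest share among these bins was 44.4% between 30 and 35 Mb, with 12 regions unique to MP2_HDAC1_OE, 2 unique to MP2_NTC and 13 shared. It was followed by 42.4% between 105 and 110 Mb, with 14, 4 and 15 regions. The bin from 75 to 80 Mb had 41.9% and the most regions unique to MP2_HDAC1_OE in number, 36 of 86, but also the most unique to MP2_NTC, 24. The bin from 130 Mb to the end had 9 regions unique to MP2_HDAC1_OE and 1 unique to MP2_NTC. The bin of at least 10 regions that went the other way lay between 115 and 120 Mb, with 1 region unique to MP2_HDAC1_OE (7.69%) and 5 unique to MP2_NTC (38.5%) of 13. The bins richest in regions, 95 between 120 and 125 Mb and 94 between 5 and 10 Mb, lay at 33.7% and 30.9%.

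**Figure D2:**
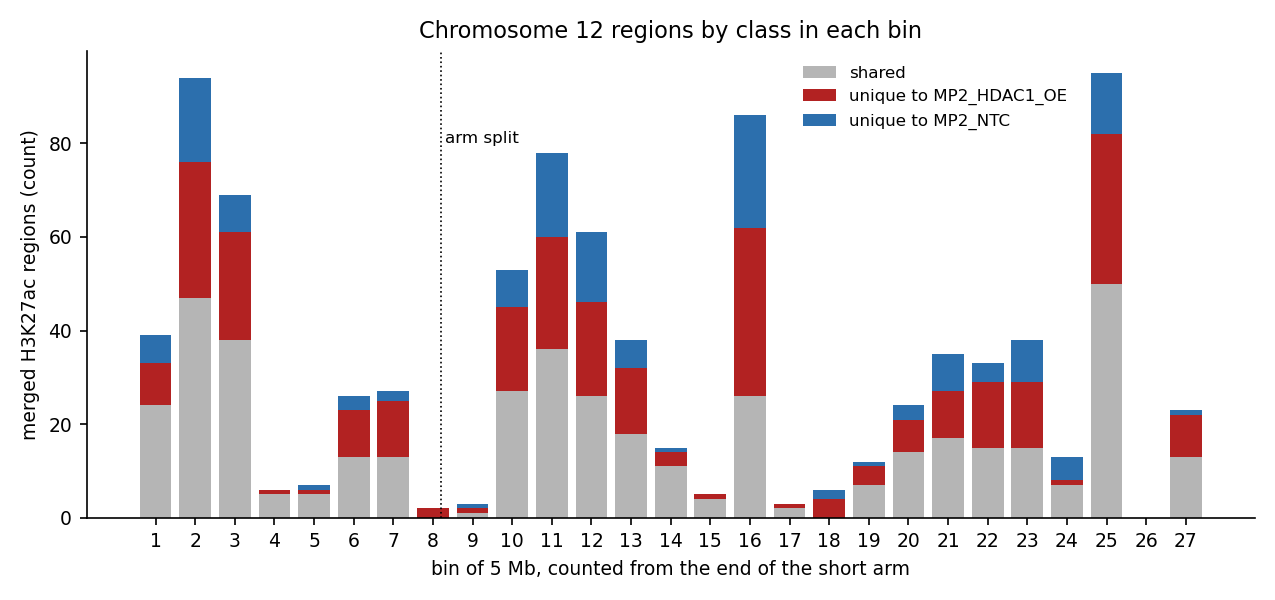
Number of merged regions (y axis) in each bin of 5 Mb along chromosome 12 (x axis, bin number from the end of the short arm), stacked as shared (grey), unique to MP2_HDAC1_OE (red) and unique to MP2_NTC (blue), with a dotted line at the arm split. Red exceeds blue in 18 of the 19 bins with at least 10 regions, and bin 24 (115 to 120 Mb) is the exception.

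The segment from 20 to 40 Mb, which spans the centromere, had 62 regions. Of these, 25 (40.3%, 28.1 to 53.6) came from MP2_HDAC1_OE alone, 6 (9.68%) from MP2_NTC alone and 31 from both. It accounted for 7.28 of the 45.4 regions above the share over the genome. Without it, 275 of 829 regions (33.2%) were unique to MP2_HDAC1_OE and 151 (18.2%) unique to MP2_NTC. The higher share of chromosome 12 was therefore not limited to this segment. Outside it, the excess lay mostly on the long arm, and the bin from 75 to 80 Mb alone held 11.4 of the 45.4 regions. The short arm outside the segment was closer to the 28.6% over the genome, with 23.1%, 30.9% and 33.3% in the bins from 0 to 15 Mb.

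Within the segment, several of the regions unique to MP2_HDAC1_OE lay in groups away from promoters. Inside *DENND5B*, which encodes a protein with a DENN domain, 5 regions over 27.7 kb (chr12:31492374-31520080) held 9 MP2_HDAC1_OE peaks and lay at least 69878 bp from any MP2_NTC peak. The signal of the strongest, 65.8, exceeded 78.1% of the MP2_HDAC1_OE peaks. Around *LMNTD1*, 6 regions unique to MP2_HDAC1_OE and 2 unique to MP2_NTC were spread over 392 kb. The first of these (chr12:25385774-25386168, signal 61.7) lay only 238 bp from one of the MP2_NTC regions, so uniqueness there separates abutting peaks. Both regions between the centromere and 40 Mb, at *CPNE8* and at the kinesin gene *KIF21A*, were unique to MP2_HDAC1_OE, with signals of 36.1 and 45.8 and the nearest MP2_NTC peak at 3419090 and 2881380 bp.

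Among the 75 coding genes from 20 to 40 Mb, 38 had a region at their promoter window, and 32 of these had a shared region. The window runs from 2 kb outside to 1 kb inside the annotated start, or either end of the gene where no start was annotated. Genes with a region unique to MP2_HDAC1_OE numbered 7 (9.33%), against 15.0% of all coding genes of the chromosome, and 1 (1.33%) had a region unique to MP2_NTC, against 8.69%. For 6 of the 7, MP2_HDAC1_OE alone had a region. They were *SSPN*, which encodes sarcospan of the dystrophin complex, *FAR2*, a fatty acyl-CoA reductase, and *BICD1*, an adaptor of dynein, with signals of 44.4, 44.9 and 46.1, and *TM7SF3*, *CPNE8* and *KIF21A*.

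A long run of closely spaced regions, chosen after its values were seen, lay beside *PHLDA1*, which encodes a pleckstrin homology-like protein linked to apoptosis. Within 500 kb of the gene (chr12:76025447-76031776) lay 74 regions, 8.31% of the chromosome's, and 67 of them lay beyond its downstream end, up to 401 kb away. Of the 74, 31 (41.9%, 30.5 to 53.9) were unique to MP2_HDAC1_OE, 21 (28.4%) unique to MP2_NTC and 22 shared. The unique regions of both lines interleaved. Of those unique to MP2_HDAC1_OE, 26 lay within 5 kb of an MP2_NTC peak, at a median distance of 1671 bp over all 31, and of those unique to MP2_NTC, 16 lay within 5 kb of an MP2_HDAC1_OE peak.

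MP2_HDAC1_OE had 82 peaks there that covered 43.5 kb, and MP2_NTC had 63 peaks that covered 37.9 kb. The median peak stood at percentile 38.6 in MP2_HDAC1_OE and at percentile 25.3 in MP2_NTC. At the start of *PHLDA1*, a shared region (chr12:76031870-76033106), which overlaps the promoter printed above, had signals of 65.4 and 52.6 and percentiles of 77.8 and 55.6. Inside the gene, a region unique to MP2_NTC (chr12:76028873-76029407) had a signal of 74.1 (percentile 80.5). Without this neighbourhood, 32.9% of the regions of the chromosome were unique to MP2_HDAC1_OE and 16.6% to MP2_NTC.

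**Figure D3:**
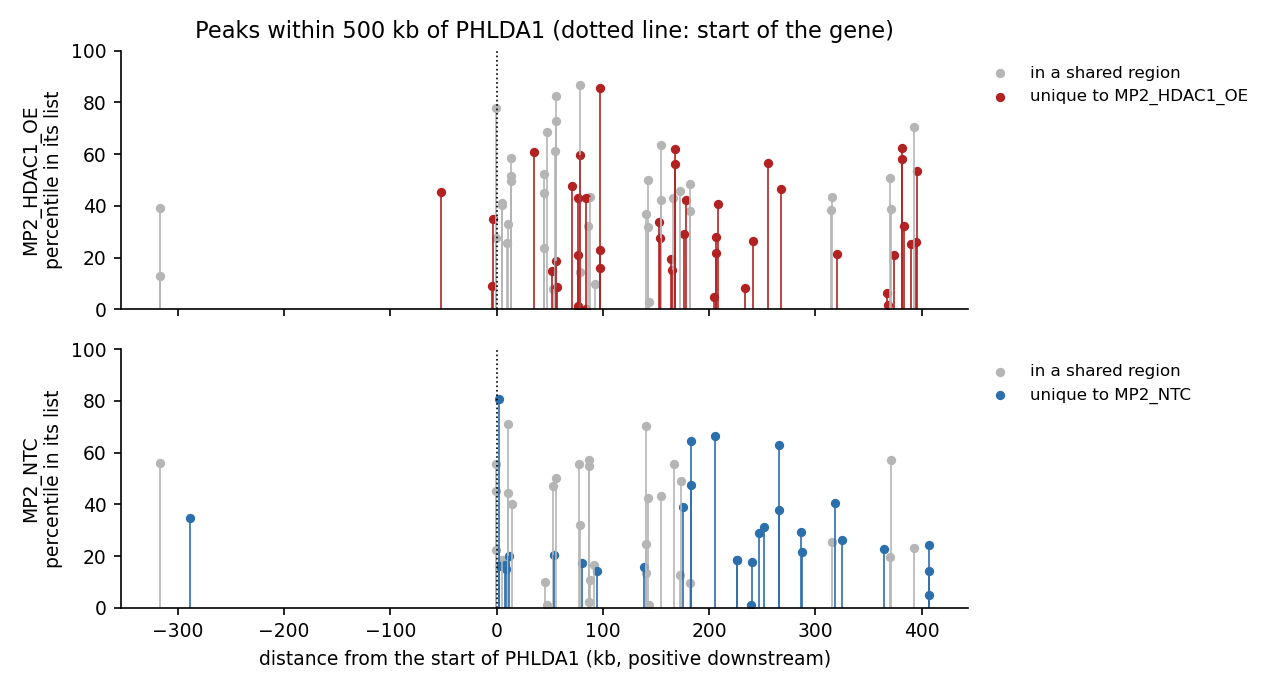
Peaks within 500 kb of *PHLDA1* by distance from the start of the gene (x axis, kb, positive downstream) and by percentile of their signal within their own list (y axis), for MP2_HDAC1_OE (upper panel) and MP2_NTC (lower panel). Grey peaks lie in shared regions and coloured peaks in unique ones. Peaks of both lines are spread over the downstream side, 82 for MP2_HDAC1_OE and 63 for MP2_NTC in all.

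At the tRNA genes *TRD-GTC2-9* and *TRF-GAA1-4*, a shared region (chr12:124927426-124927871) had signals of 20.9 in MP2_HDAC1_OE and 79.4 in MP2_NTC and ranked 68.1 points lower in MP2_HDAC1_OE, and a region unique to MP2_HDAC1_OE with a signal of 70.3 lay beside it. The largest stretch of the chromosome without a region followed. Over 5.93 Mb, with 13 coding genes among them *TMEM132B*, *TMEM132C*, *TMEM132D* and the Wnt receptor gene *FZD10*, there was none in either line. Beyond this gap, the first region (chr12:130870518-130871547) lay upstream of *RAN* and was unique to MP2_HDAC1_OE.

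The strongest regions unique to MP2_HDAC1_OE mostly lay over 1 kb from any MP2_NTC peak, and the strongest unique to MP2_NTC mostly lay close to an MP2_HDAC1_OE peak. The 10 strongest of MP2_HDAC1_OE stood at percentiles 85.5 to 95.3 of its peaks, and 1 of them, that at *RAN*, was within 1 kb of an MP2_NTC peak. Of the 10 strongest of MP2_NTC, at percentiles 81.6 to 94.5, 8 were within 1 kb of an MP2_HDAC1_OE peak. Over all unique regions, the shares within 1 kb were 26.0% of 300 for MP2_HDAC1_OE and 34.4% of 157 for MP2_NTC.

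The strongest region of MP2_HDAC1_OE alone lay at *UQCC6* (chr12:103956759-103957875, signal 96.4) and was 8325 bp from the nearest MP2_NTC peak. It was followed by a region at *CD9* (chr12:6200579-6201585, signal 89.0), which encodes a tetraspanin of the cell surface and exosomes, at 5817 bp. The region upstream of *RAN* had a signal of 88.1 and the nearest MP2_NTC peak at 690 bp, within the shared region just after the start of the gene. Further strong regions lay at *ARPC3*, a subunit of the Arp2/3 complex of actin branching (signal 85.2), at *DIABLO*, the mitochondrial antagonist of inhibitors of apoptosis (81.1), and at *SMARCC2*, a core subunit of BAF chromatin remodelling complexes (79.1, with the nearest MP2_NTC peak at 30415 bp).

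The strongest region of MP2_NTC alone (chr12:8242518-8243337, signal 103) lay near *FAM90A1* and only 99 bp from an MP2_HDAC1_OE peak. The second, at *EIF4B* (chr12:53006395-53006987, signal 96.7, percentile 92.6), had its nearest MP2_HDAC1_OE peak at 39615 bp. That at *DDX54* and *RITA1* (signal 88.7), was 27 bp from one. A region shared by the promoters of *DGKA*, a diacylglycerol kinase, and *PYM1* (signal 79.5) was the other of the 10 that stood apart, at 38852 bp. Among wide unique regions, a region of 2480 bp with 5 peaks at *ATF1*, a CREB family transcription factor, was unique to MP2_NTC with the nearest MP2_HDAC1_OE peak at 257162 bp. A region of 2302 bp with 5 peaks at *POC1B* and *GALNT4* was unique to MP2_HDAC1_OE, and its nearest MP2_NTC peak, 169354 bp away, belonged to the pair of regions at *DUSP6*.

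Shared regions were ranked within each line among the 9477 shared regions of the genome by their highest signal, and the difference of the percentiles, MP2_HDAC1_OE minus MP2_NTC, is the rank shift. Of the 434 shared regions on chromosome 12, 237 (54.6%, 49.8 to 59.4) ranked higher in MP2_HDAC1_OE, against 50.2% over the genome. The median shift was 2.91 points with quartiles of -15.2 and 20.5, against a median of 0.18 over the genome. A shift of at least 20 points toward MP2_HDAC1_OE was found for 111 regions (25.6%, background 21.6%) and toward MP2_NTC for 85 (19.6%, background 21.7%). The medians were 1.93 on the short arm, 3.69 on the long arm and 2.44 from 20 to 40 Mb.

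The medians of the bins spread more than those of the arms, which hold 145 and 289 shared regions. The highest and lowest bins below hold only 17 and 11. Medians over fewer regions spread more in any case, and the difference was not tested. The highest medians among bins with at least 10 shared regions were 17.4 between 100 and 105 Mb and 12.2 between 75 and 80 Mb. The lowest was -12.3 between 65 and 70 Mb, the bin of *RAP1B* and *MDM2*. Bins with a high share unique to MP2_HDAC1_OE did not all have a high shift, since the bin from 30 to 35 Mb had a median of 1.93.

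**Figure D4:**
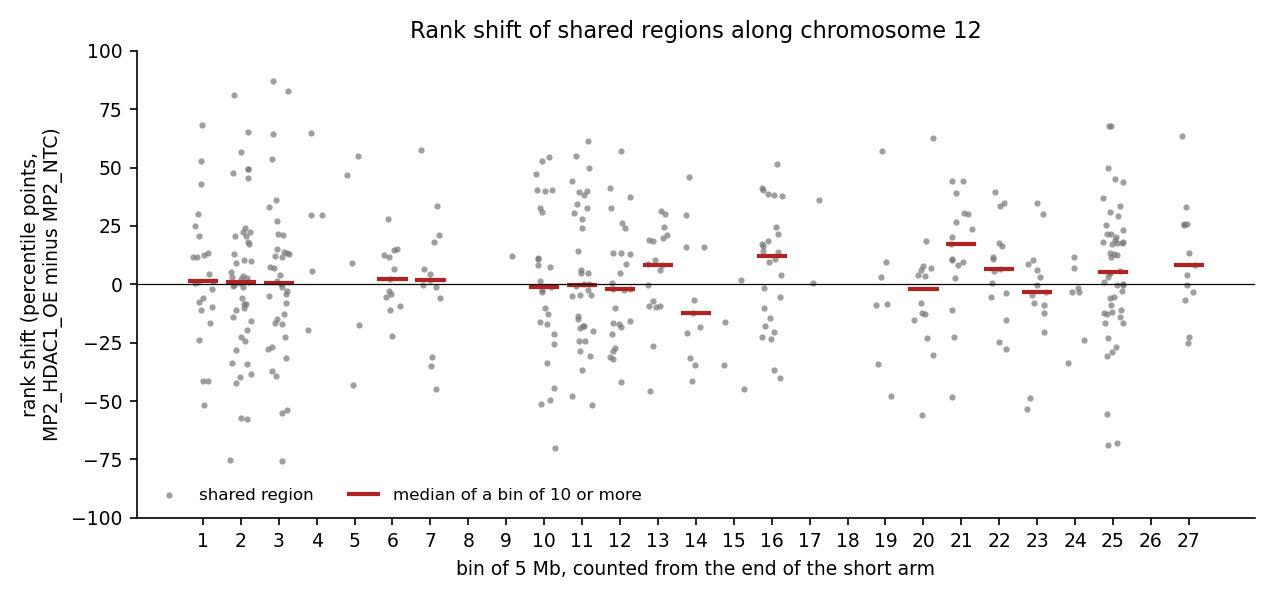
Rank shift of each shared region (grey points, percentile points, positive when ranked higher in MP2_HDAC1_OE) by bin of 5 Mb along chromosome 12 (x axis), with the median of bins with at least 10 shared regions as red lines. The medians run from -12.3 in bin 14 (65 to 70 Mb) to 17.4 in bin 21 (100 to 105 Mb), and single regions span far more in each of these bins with at least 10 shared regions.

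The largest single shifts in both directions lay in 1 locus of 12.9 kb at *CDKN1B*, which encodes the cell cycle inhibitor p27. Upstream of *APOLD1*, a gene of vascular cells, a shared region (chr12:12723965-12725388) had signals of 116 in MP2_HDAC1_OE and 38.9 in MP2_NTC and a shift of 87.0. Inside *GPR19*, an orphan receptor gene, a shared region (chr12:12714079-12715081) had signals of 27.6 and 88.5 and a shift of -75.6. Between them, the region just after the start of *CDKN1B* had signals of 86.9 and 44.95 and a shift of 64.5, and a region of 1315 bp before the start was unique to MP2_NTC, with a signal of 67.1. The 7 regions of this locus (chr12:12714079-12727003) held 11 MP2_HDAC1_OE peaks and 12 MP2_NTC peaks. The strongest peak of each line thus sat at a different place within it.

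A similar change of position was seen at the genes of miR-200c and miR-141, 2 miRNAs that hold epithelial identity by repressing *ZEB1* and *ZEB2*. Their 3p strands are shown because the regions frame both hairpins (chr12:6963699-6963766 and chr12:6964097-6964191). Capitals mark the seed, bases 2 to 8, from RefSeq, GRCh38.p14, and the mature forms are on the plus strand.
hsa-miR-200c-3p: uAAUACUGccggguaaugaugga
hsa-miR-141-3p: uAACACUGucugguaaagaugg
A region unique to MP2_NTC (chr12:6961384-6962167, signal 78.7) was followed by a shared region with signals of 111 in MP2_HDAC1_OE and 61.9 in MP2_NTC and a shift of 49.6, which ended 423 bp before the miR-200c hairpin. After the miR-141 hairpin, at 628 bp, a shared region (chr12:6964819-6965835) had signals of 73.4 and 19.5 and a shift of 65.4. It also overlaps an end of *PHB2*, so the regions of the miRNAs and of that gene cannot be told apart. No miRNA was measured here.

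Other shared regions with a strong shift toward MP2_HDAC1_OE lay at *DUSP16*, a phosphatase of JNK and p38 kinases (signals 110 and 41.1, shift 82.6), at *ATN1* (88.4 and 24.0, shift 81.1) and at *TEAD4*, the DNA-binding partner of YAP and TAZ (86.3 and 41.6, shift 68.3). At *MPHOSPH9*, whose promoter is printed above, and *MTRFR*, a single region had signals of 94.7 and 46.6 and a shift of 67.9. It cannot be assigned to either gene. Toward MP2_NTC, the largest shifts after *GPR19* were at *C1RL*, a protease related to complement C1r (42.6 and 107, shift -75.1), and *TUBA1C*, an alpha tubulin gene (43.7 and 100.1, shift -70.0). At *M6PR* and *KLRG1*, which share a region, the signals were 49.2 and 95.5 and the shift -57.7. The regions with the highest mean rank had shifts near 0. The region shared by *SMIM10L1* and *PRH1* had signals of 162 and 192 and a shift of -0.07, and that of *YARS2* had 137 and 168 and a shift of -0.43.

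Strength and position were compared between the unique and the shared regions. The median percentile was 42.0 for regions unique to MP2_HDAC1_OE, 39.7 for those unique to MP2_NTC and 73.0 for shared regions. In all, 603 of 891 regions (67.7%, 64.5 to 70.7) overlapped a promoter window of any gene, against 65.9% over the genome, and 536 (60.2%) overlapped that of a coding gene, against 57.9%. A window of any gene was overlapped for 165 of the 300 regions unique to MP2_HDAC1_OE (55.0%, 49.2 to 60.7; 48.7% on the other chromosomes), for 94 of 157 unique to MP2_NTC (59.9%; 55.9%) and for 344 of 434 shared regions (79.3%; 79.4%). Of the regions unique to MP2_HDAC1_OE, 134 (44.7%) lay within 5 kb of an MP2_NTC peak and 62 (20.7%) lay over 50 kb away, against 49.7% and 18.5% on the other chromosomes.

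Of 1024 coding genes of chromosome 12, 503 (49.1%) had a region at the promoter window, against 48.7% of coding genes in the genome. Regions of MP2_HDAC1_OE alone lay at 154 (15.0%, background 11.7%), regions of MP2_NTC alone at 89 (8.69%, background 10.1%) and shared regions at 338 (33.0%, background 35.8%). Genes with regions unique to MP2_HDAC1_OE and no other numbered 95, and those with regions unique to MP2_NTC and no other numbered 48.

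The counts of the gene lists below are small, were not tested and are set beside the shares of all coding genes of the chromosome, 49.1% with any region, 15.0% with one unique to MP2_HDAC1_OE, 8.69% with one unique to MP2_NTC and 33.0% with a shared one. A region that overlaps the windows of neighbouring genes counts for each of them. Of 20 genes listed as chromatin regulators, which include the T-box factor gene *TBX3*, *HMGA2* and the chaperone gene *DNAJC14*, 15 had a region, 7 (35.0%) had one unique to MP2_HDAC1_OE and 0 had one unique to MP2_NTC. Regions were found only in MP2_HDAC1_OE at *CHD4*, the ATPase of the NuRD complex in which HDAC1 works, at *HDAC7*, a class IIa deacetylase, at *SMARCC2* and at *BAZ2A*, a subunit of the NoRC remodelling complex. *CHD4* had 2 such regions, with signals of 36.9 and 48.9 and the nearest MP2_NTC peak at 37920 bp. *HDAC7* had a weak one with a signal of 29.9 (percentile 21.3). The 7 also include *KDM5A*, *ARID2* and *KMT5A*, which each had a shared region beside the unique one. At *KDM5A* the unique region was weak (signal 17.5) and lay 8 bp from an MP2_NTC peak. The shared regions of the list went both ways. *KMT2D*, an H3K4 methyltransferase, had signals of 122 and 61.3 and a shift of 52.9, while *KDM5A*, an H3K4 demethylase, had 63.7 and 116 and a shift of -41.2, and *ARID2*, of the PBAF complex, had 52.3 and 92.3 and a shift of -49.6. *SUDS3*, of the SIN3 complex, had 87.1 and 95.5 and a shift of -1.64.

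*DUSP6*, a phosphatase of ERK, had 2 regions, both unique to MP2_NTC, with signals of 49.5 and 22.0 and the nearest MP2_HDAC1_OE peak at 169354 bp. *SH2B3*, an adaptor of cytokine receptors, also had 2 regions, both unique to MP2_NTC, with 16.2 and 42.5. Both genes thus had regions only in MP2_NTC, and the strongest of each stood at percentiles 50.2 and 37.4 of its peaks. The genes of this paragraph are examples chosen after their values were seen, with no tally. *PTPN11*, which encodes the phosphatase SHP2, had a shared region with a shift of 8.72, and *RAP1B* one with a shift of -31.7.

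Single genes of small GTPase regulation are given as examples chosen after their values were seen, with no tally. *ARHGAP9*, a GTPase-activating protein, and *ARHGEF25*, an exchange factor, had regions only in MP2_HDAC1_OE, with signals of 56.2 and 44.95. The same regions lay at the promoter windows of the neighbours *MARS1* and *DTX3*, so they cannot be assigned to either gene of a pair. *RILPL1*, a Rab effector, had a shared region with signals of 71.7 and 46.0 and a shift of 45.2. *FGD6*, a Cdc42 exchange factor, had one with a shift of -30.2 beside a region unique to MP2_HDAC1_OE, and both also lay at the window of *VEZT*. *ARL1*, a Golgi GTPase gene, had 2 shared regions side by side with shifts of -22.7 and 23.8. 

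Of 16 keratin genes, a chosen list from the keratin cluster that includes the type I gene *KRT18*, 3 (18.8%) had a region. The share of all coding genes of the chromosome was 49.1%. *KRT80* and *KRT8* had regions only in MP2_HDAC1_OE, with signals of 50.2 and 46.7. *KRT18*, the partner of KRT8 in simple epithelia, had a shared region (chr12:52949137-52950086) with signals of 52.5 and 68.9 and a shift of -24.2, and a region unique to MP2_HDAC1_OE upstream of it with a signal of 36.8. In the *HOXC* cluster, 4 of 9 genes (44.4%) had a region, against 49.1% of all coding genes. A single region unique to MP2_HDAC1_OE, with a signal of 33.6, lay at the overlapping starts of *HOXC4*, *HOXC5* and *HOXC6*, and *HOXC8* had a shared region with a shift of -17.9.

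Of 16 cell cycle and p53 genes, 13 (81.2%) had a region and 12 had a shared one, against 49.1% and 33.0% of all coding genes. A region unique to MP2_HDAC1_OE lay at 2 (12.5%) and one unique to MP2_NTC at 3 (18.8%), against 15.0% and 8.69%. Of the 12 genes with a shift, 8 ranked higher in MP2_HDAC1_OE (median shift 12.0), against 186 of 338 coding genes of the chromosome (median 3.08). *TIGAR*, a p53 target that lowers glycolysis, had a region only in MP2_NTC (signal 67.3). *BTG1*, an antiproliferative gene, had signals of 72.2 and 37.8 and a shift of 57.0, whereas *CDK4* had 37.7 and 58.4 and a shift of -32.0, and *MDM2* had 69.3 and 77.5 and a shift of -6.86. *FOXM1*, a transcription factor of mitosis, had 1 shared region with a shift of 4.40 and 2 regions unique to MP2_HDAC1_OE. Both unique regions (signals 18.9 and 53.4) lay close to an MP2_NTC peak, at 602 and 102 bp.

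Of 13 metabolic genes, 8 (61.5%) had a region, 3 (23.1%) had one unique to MP2_HDAC1_OE and 4 (30.8%) had one unique to MP2_NTC, against 49.1%, 15.0% and 8.69% of all coding genes. Of the 4 genes with a shared region, the glycolytic genes *GAPDH* and *TPI1* each had one that ranked lower in MP2_HDAC1_OE. The other genes, *SHMT2* and *CS*, had shifts near 0, of 0.76 and -2.64. The shared region of *GAPDH* had signals of 44.8 and 66.0 and a shift of -33.7 beside 2 regions unique to MP2_NTC. These lay only 461 and 685 bp from an MP2_HDAC1_OE peak. The peak at 461 bp belonged to a region unique to MP2_HDAC1_OE (signal 55.9), outside the promoter window of *GAPDH*. The stronger of 2 shared regions of *TPI1* had 79.3 and 141 and a shift of -24.4, and the weaker had a shift of 1.16. *PFKM* and *ENO2* each had 1 region unique to either line and none shared, and those at *ENO2* lay 301 bp apart. The counts of unique regions of this list thus rest in part on closely spaced peaks.

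Of 27 genes of matrix, adhesion and signalling, 10 (37.0%, 19.4 to 57.6) had a region, an interval that includes the 49.1% of all coding genes. A region unique to MP2_HDAC1_OE lay at 3 (11.1%) and one unique to MP2_NTC at 2 (7.41%), against 15.0% and 8.69%. Among the 17 without a region were *MGP*, *LUM*, *DCN*, *WNT5B* and *ITGA5*. Regions were found only in MP2_HDAC1_OE at *CD9*, *TWF1* and *STAT2*, which transmits type I interferon signals (signal 63.2), and only in MP2_NTC at *MYL6*, a myosin light chain gene. *CD63*, another tetraspanin gene, had a shared region with signals of 88.5 and 64.9 and a shift of 32.8, and *ITGA7* had 52.2 and 70.8 and a shift of -27.1.

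**Figure D5:**
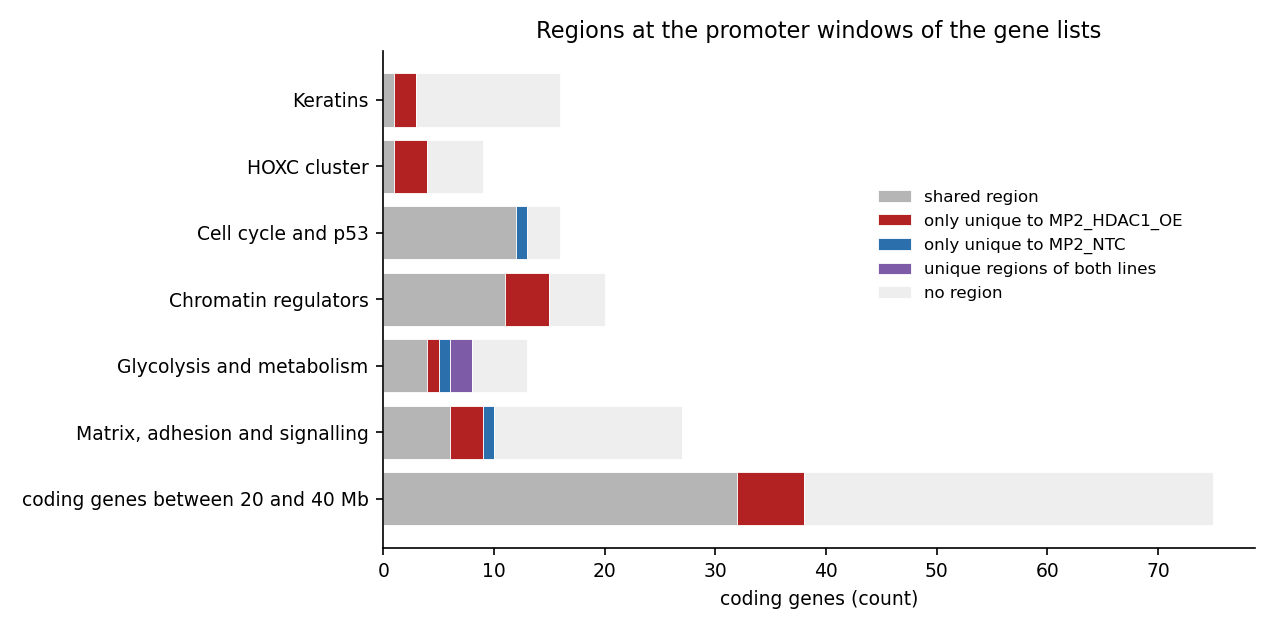
Number of coding genes (x axis) of each gene list of chromosome 12 (y axis) by the regions at their promoter windows: any shared region (grey), regions unique to MP2_HDAC1_OE alone (red), regions unique to MP2_NTC alone (blue), unique regions of both lines without a shared one (purple) or no region (light grey). Chromatin regulators show 4 genes in red and 0 in blue, and cell cycle and p53 genes 0 in red and 1 in blue.

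The 300 base promoters of 765 coding genes of the chromosome were searched on both strands for GGGCGG (the GC box), TGANTCA (the AP-1 site), CACGTG (the E-box) and CCAAT (the CCAAT box). A GC box was present in 60.7% of all 765. It was present in 174 of 232 promoters overlapped by a shared region, 73.8% (61.5 to 84.0) of 65 overlapped only by regions unique to MP2_HDAC1_OE, 92.3% (79.1 to 98.4) of 39 overlapped only by regions unique to MP2_NTC and 47.8% of 427 without overlap. CCAAT was present in 33.6%, 35.4% (23.9 to 48.2), 61.5% (44.6 to 76.6) and 37.0% of these groups, against 37.0% of all. The AP-1 motif was present in 3.45%, 6.15% (1.70 to 15.0), 2.56% (0.06 to 13.5) and 6.09% of these groups, against 5.10% of all. The E-box was present in 14.2%, 9.23% (3.46 to 19.0), 15.4% (5.86 to 30.5) and 7.49%, against 10.3% of all. The groups differ in G and C content, with medians of 63.7%, 65.7%, 66.0% and 57.0%, and its part in these shares was not tested. The letters are a description of these windows and say nothing of which factors bind there.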

How the data were processed

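H3K27ac ChIP-sequencing of 2 samples of MP2_HDAC1_OE and 2 of MP2_NTC, with 2 controls without antibody for each line, was processed by the authors with the ENCODE pipeline. The submitters' processing notes name BWA 0.7.12, Picard 1.88 and hg38. The peak caller is not given in the sources used here. The authors deposited 1 list per line, the optimal set of their reproducibility test (IDR) over both samples. Each deposited peak has a signal, whose definition is not stated, and a score, the authors' scaled IDR, which was at 1000 for 30.3% of MP2_HDAC1_OE and 36.0% of MP2_NTC peaks on chromosome 12. The signal was used within a list and the score only for this share. Read depth is unknown.

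Peaks sharing 1 bp were merged over both lists. Rank shift is the difference of percentiles among shared regions by highest signal, and a gene's shift is that of its shared region ranked highest in MP2_HDAC1_OE. Gene positions and starts came from RefSeq tables of GRCh38.p14, with an annotated start for 765 of 1024 coding genes. Intervals are exact Clopper-Pearson. The regions named are the 10 strongest unique to each line, the 8 largest shifts each way, the 5 highest mean ranks, the 10 widest and those at listed genes, and others were chosen after their values were seen. Members and lists were chosen with earlier results of these data known. Merging and ranking were tested on simulated data. Alternatives covered merging across gaps, peak filters, windows, bins and ranks. Python 3.11.15, pandas 2.3.3 and scipy 1.17.1 were used. Some items are not reported here.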

Additional observations from a re-analysis of the deposited data

How the results depend on the processing

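Of 89 recomputed values over 9 results, 81 stayed within the 95% interval of the reported share (for counts, within 1.5 times) and 8 did not. Only 37 of the 89 were other than leaving out 1 of 26 bins in turn, and all 8 were among these 37. Leaving out a bin removed at most 95 of 891 regions, so those values could hardly leave the interval. Joining peaks across gaps of up to 500 bp gave shares of 29.4% unique to MP2_HDAC1_OE and 15.0% unique to MP2_NTC, against 25.1% and 17.9% over the genome, and 30.1% unique to MP2_HDAC1_OE on the long arm. From 20 to 40 Mb the share unique to MP2_HDAC1_OE ran from 34.5% (strongest 75% of peaks) to 46.6% (covered bases). Counting single peaks, 38.6% of MP2_HDAC1_OE peaks and 25.5% of MP2_NTC peaks had no partner, against 32.6% and 26.2% over the genome. Of the bases covered by peaks, 40.2% of 261775 on the short arm and 42.1% of 613299 on the long arm came from MP2_HDAC1_OE alone. This is a share of bases and not of regions, and no value over the genome stands beside it. With windows at coding genes alone, the promoter share was 60.2%. With equal numbers of peaks in both lists, the share unique to MP2_HDAC1_OE was 32.0%, against 27.3% over the genome. The alternatives without the neighbourhood of *PHLDA1*, without each bin and with either end of every gene were chosen after seeing the data. No paired analysis was possible because the samples of a line stand in 1 joint list, and none of them could be left out in turn. A region absent from a list may lie just under its threshold, and how often was not tested.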
